A study of Mus musculus with 12 samples.

Results

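The genes described here carry glucose into a T cell, turn it into pyruvate and lactate, sense oxygen, or are known to respond to low oxygen, and they include Vegfa, the gene of the angiogenic growth factor VEGF-A. They were chosen by name, with earlier results of these data known. Of 38 symbols looked up, 35 were listed in both deposited tables. These 35 genes are set against 10405 genes listed for regulatory T cells (Treg) and 9886 listed for conventional T cells (Tcon). Gpi1, Eno1 and Pkm2 were not listed under these symbols. Gpi was listed and is counted below among the other pathway genes, and Pkm is among the 35. Ero1l, which holds the same values as the newer symbol Ero1a, was counted once.

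RNA of CD4+CD25+FOXP3+ Treg and of naive CD4+ Tcon was sequenced in 12 libraries, 6 of each cell type. All mice were FOXP3-IRES-GFP reporters (strain B6.Cg-Foxp3tm2Tch/J), in which the Foxp3 locus also encodes GFP, and their age is not given in the labels. They received either vehicle (DMSO in the titles) or SAH-FOXP3(229-259)C at 25 mg/kg by intraperitoneal injection on each of 2 days. This agent, shortened to SAH here, is a peptide whose helix is held by a chemical staple and which is directed at FOXP3. In each cell type library 01 is lymph node vehicle, 02 and 03 are lymph node SAH, 04 is spleen vehicle, and 05 and 06 are spleen SAH. Each organ thus has 1 vehicle library per cell type. Since no label says whether libraries came from separate mice, the p-values measure the spread between these libraries, which may be technical.

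Glucose enters T cells through GLUT transporters, is trapped by hexokinase and is broken down through the enzymes of glycolysis to pyruvate, which is either sent to the mitochondrion or reduced to lactate and exported. When oxygen is short, the prolyl hydroxylases of the EGLN family no longer mark HIF-1 alpha for destruction by the VHL ubiquitin ligase. HIF-1 alpha with its partner ARNT then binds DNA at a short core sequence and raises the transcription of glycolytic genes, Vegfa and others. In T cells many of these genes are also known to be driven by activation through mTOR and MYC. Much of HIF control acts on the protein, which RNA does not measure.

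Depth was high for all 12 libraries, with 36442420 to 48888678 reads in the listed genes, so that 1 read was worth at most 0.0267 CPM (the authors' depth-scaled read signal per gene). These reads were inferred here from the step between low CPM values, counting a value as whole within 0.1 of a read. The low genes Vegfa and Hk2 had an inferred 125 to 617 and 81 to 579 reads per library. The cell type labels were met by their markers: the summed level of 5 Treg markers (Foxp3, Il2ra, Ikzf2, Ctla4 and Tnfrsf18) was 3881 to 4397 CPM across Treg libraries and 236 to 286 CPM across Tcon libraries. Spleen libraries held more RNA of myeloid and red cell markers. The CD8 and natural killer sum in Treg (4 of 8 listed) was lower in spleen, at 29.7 to 30.9 CPM against 36.3 to 37.0 CPM. Of these 4 genes, 2 had a positive organ difference and 2 a negative one. Myeloid markers (4 of 11 listed in Treg, 2 of 11 in Tcon) summed to 36.1 to 70.5 CPM in spleen Treg against 2.93 to 3.74 CPM in lymph node Treg, and to 24.8 to 29.7 CPM against 5.57 to 6.55 CPM in Tcon. Red cell markers (2 of 10 listed in Treg, 1 of 10 in Tcon) were at most 0.849 CPM in lymph node, at 0 in lymph node Tcon, and highest in spleen library 06 of each cell type. Plasma cell markers (4 of 6 listed) summed to 363 to 392 CPM in spleen Treg against 277 to 305 CPM in lymph node Treg. In Tcon their sums overlapped, at 270.0 to 422 CPM against 314 to 335 CPM. Their log2 organ differences ran from -0.27 to 6.03 in Treg and from -0.37 to 5.35 in Tcon. In bulk RNA a change in the number of cells of a type and a change in RNA per cell cannot be told apart.

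Promoters are shown first for the genes among the 3 largest SAH changes of either cell type, because HIF factors bind a core that reads ACGTG or GCGTG. Capitals mark every such core on either strand, and the complement of a core reads CACGT or CACGC. The 250 bases before the start are given from RefSeq promoter windows of the mouse build GRCm38.p6 (mm10), 5′ to 3′ along the gene's strand. Vegfa, Slc2a1 (GLUT1), P4ha1 (a subunit of the collagen prolyl hydroxylase) and Slc16a1 (the lactate and pyruvate transporter MCT1) make up that set, and Ldha (lactate dehydrogenase A) is added as a gene rich in cores.
Vegfa, chr17:46032378-46032627, minus strand: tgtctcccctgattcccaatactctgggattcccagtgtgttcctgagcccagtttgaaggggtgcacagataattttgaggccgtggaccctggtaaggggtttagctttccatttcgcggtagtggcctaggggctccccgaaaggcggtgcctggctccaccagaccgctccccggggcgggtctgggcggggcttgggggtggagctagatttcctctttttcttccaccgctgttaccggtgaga
Slc2a1, chr4:119108495-119108744, plus strand: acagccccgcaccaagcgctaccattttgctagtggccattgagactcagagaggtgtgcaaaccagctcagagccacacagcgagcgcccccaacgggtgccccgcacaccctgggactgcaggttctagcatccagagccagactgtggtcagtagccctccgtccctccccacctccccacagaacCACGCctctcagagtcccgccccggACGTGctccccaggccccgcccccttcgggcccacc
P4ha1, chr10:59323046-59323295, plus strand: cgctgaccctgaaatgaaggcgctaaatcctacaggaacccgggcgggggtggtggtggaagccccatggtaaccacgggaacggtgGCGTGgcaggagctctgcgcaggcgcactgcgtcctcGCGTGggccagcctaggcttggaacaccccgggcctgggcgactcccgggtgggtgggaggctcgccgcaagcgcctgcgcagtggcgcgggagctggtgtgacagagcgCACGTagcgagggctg
Slc16a1, chr3:104638414-104638663, plus strand: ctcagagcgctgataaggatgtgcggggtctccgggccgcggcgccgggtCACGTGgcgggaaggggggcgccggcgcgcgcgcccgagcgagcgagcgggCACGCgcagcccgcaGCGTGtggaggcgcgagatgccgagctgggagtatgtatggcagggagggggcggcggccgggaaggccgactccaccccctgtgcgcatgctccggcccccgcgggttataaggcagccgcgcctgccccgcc
Ldha, chr7:46845554-46845803, plus strand: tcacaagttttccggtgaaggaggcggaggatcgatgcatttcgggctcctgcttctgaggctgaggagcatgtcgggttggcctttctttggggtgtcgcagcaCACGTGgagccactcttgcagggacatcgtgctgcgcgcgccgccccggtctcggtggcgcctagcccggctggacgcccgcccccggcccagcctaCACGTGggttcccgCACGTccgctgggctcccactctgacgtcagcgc
Slc2a1 had 2 cores, at positions -61 and -36 from the start. P4ha1 had 3, at -163, -126 and -16. Slc16a1 had 4 before its start and Ldha 5, where the palindrome CACGTG counts once on each strand. The Vegfa window at the upstream start had 0 cores, and its other window in the table, inside the gene, had 2. No match says only that these letters are not in this window.

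Across windows of 300 bases (250 before to 50 after a start), 32 of the 35 genes had a window, and 30 of the 32 (93.8%) held at least 1 core in their richest window. The same was true of 69.4% of 7661 genes listed in the Tcon table and 46.7% of all 27025 genes with a window. Genes with more windows have more chances in this count, and the 35 genes had 49 windows for 32 genes where the Tcon table had 9755 for 7661. Per window the shares were 77.6% for the 35 genes, 63.6% for the Tcon table and 43.8% for all windows. A match is a description of letters and not a bound site.

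SAH was followed in Tcon by more RNA of Vegfa, Slc2a1 and P4ha1, and in Treg no gene of the 35 passed. A gene was called when its adjusted p (limma on log2(CPM + 1), adjusted over all genes of the table) was below 0.05. In Tcon 3 of 35 rose, 0 fell and 32 did not pass, where 0.88% of all genes were called higher, 0.162% lower and 1.04% in either direction. In Treg 0 of 35 were called by limma, where 0.135% of all genes were called higher, 0.0673% lower and 0.202% in either direction, and 4 of the 35 had an unadjusted p below 0.05, all with a positive change, beside 733 of 10405 genes. In Tcon 13 of the 35 had an unadjusted p below 0.05, of which 12 were positive, beside 1391 of 9886 genes. The median log2 change of the 35 was 0.08 in Tcon and 0.04 in Treg, and that of all genes was 0.00 in both.

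**Figure D1:**
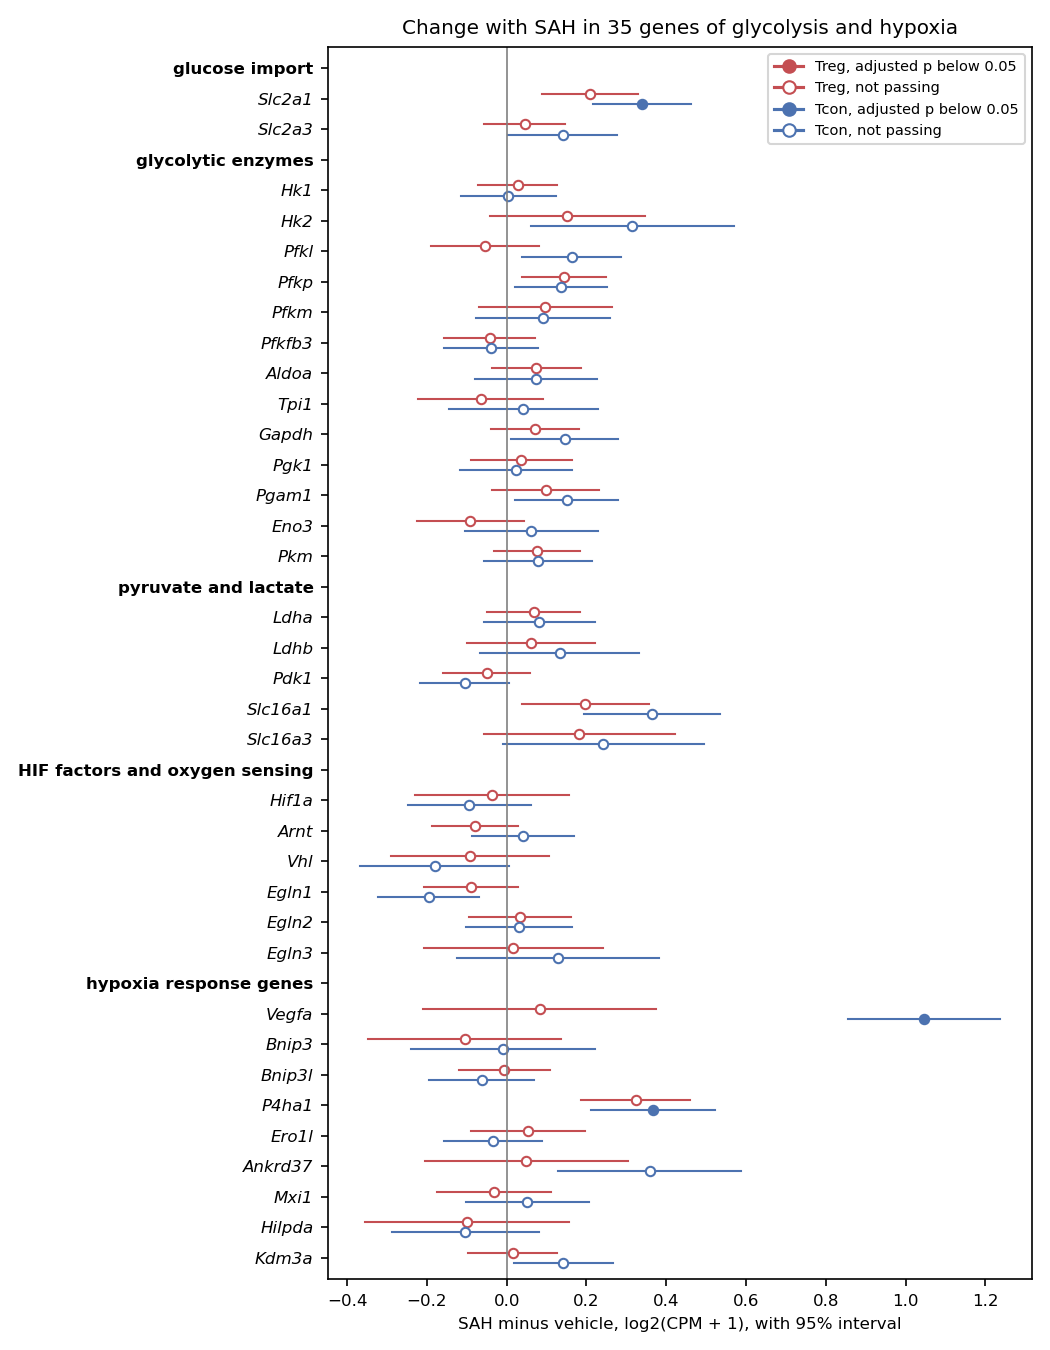
Change with SAH of the 35 genes on the log2(CPM + 1) scale (x axis), by role (y axis), in Treg (red) and Tcon (blue), with 95% intervals of the model and filled points where the adjusted p was below 0.05. Vegfa in Tcon stands at 1.05, and all other points lie between -0.20 and 0.37.

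Vegfa had the largest change of the 35 genes. Tcon gave 6.88 CPM under vehicle beside 14.2 and 15.7 CPM under SAH in lymph node, and 4.30 CPM beside 9.71 and 10.6 CPM in spleen. All 4 SAH libraries were above both vehicle libraries. The fitted rise was 2.07-fold (95% confidence interval, CI, 1.81 to 2.36, adjusted p = 0.000789), a log2 value of 1.05. It kept its call when any 1 of the 6 libraries was left out. Treg gave 3.42 CPM under vehicle beside 4.35 and 3.15 CPM under SAH in lymph node, and 3.04 CPM beside 3.24 and 3.25 CPM in spleen. There the vehicle and SAH libraries overlapped, with a log2 change of 0.08 (95% CI -0.21 to 0.37, adjusted p = 0.970). The gene lies on chromosome 17, 46016993 to 46032369, minus strand (mm10), and no other annotated gene overlaps it.

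The difference in the Vegfa response between the cell types was tested itself. The log2 change in Tcon minus that in Treg was 0.96 (95% CI 0.64 to 1.29), at adjusted p = 0.0615 over 9784 genes in the model of 12 libraries. With the shared library number as a block the same difference passed (adjusted p = 0.00441). In the model without a block 0 of the 35 genes and 0 of all genes (0%) were called by limma, 453 of all genes having an unadjusted p below 0.05. With the block Vegfa was the 1 gene of the 35 called, among 76 of all genes. The unblocked test of Vegfa passed with a pseudocount of 4 (adjusted p = 0.0430) and with robust empirical Bayes (adjusted p = 0.0280). It passed in 0 of the 6 fits that left out 1 library number, with adjusted p from 0.0538 without 02 to 1.00 without 04.

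Markers of other cells were set beside Vegfa in Tcon. The 2 listed myeloid markers (Lyz2 and Itgam) summed to 5.57 CPM under vehicle beside 6.55 and 5.62 CPM under SAH in lymph node, and 25.2 CPM beside 29.7 and 24.8 CPM in spleen. The 1 platelet marker listed of 4, Itga2b, showed 1.97 CPM under vehicle beside 2.68 and 2.25 CPM under SAH in lymph node, and 2.24 CPM beside 2.66 and 2.63 CPM in spleen. All 4 SAH libraries were thus above the vehicle of their organ for Itga2b, as for Vegfa, and its change was not called. The 1 gene listed of 6 on the endothelial and stromal list, Pecam1, lay at 188 to 204 CPM in Tcon and at 155 to 184 CPM in Treg. Which cells its RNA came from was not tested. CD8 and natural killer markers (5 of 8 listed) summed to 34.1 CPM under vehicle beside 34.4 and 29.7 CPM under SAH in lymph node, and 90.0 CPM beside 66.1 and 65.5 CPM in spleen, where the spleen SAH libraries were lower, with 0 of 5 called by limma and 2 at an unadjusted p below 0.05, both negative. Plasma cell markers (4 of 6 listed) summed to 314 CPM under vehicle beside 335 and 318 CPM under SAH in lymph node. In spleen their sum was lower under SAH, at 422 CPM under vehicle beside 329 and 270.0 CPM. Over both organs 2 of these 4 genes had a positive change and 2 a negative one. The 1 red cell marker listed, Slc4a1, was at 4.21 CPM in spleen vehicle, at 3.38 CPM in library 05 and 50 CPM in library 06. On plain CPM the Vegfa mean of the SAH libraries was 2.18 times vehicle in lymph node and 2.36 times in spleen, and spleen held the higher myeloid sums. The part of other cells in the Vegfa values was not tested.

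**Figure D2:**
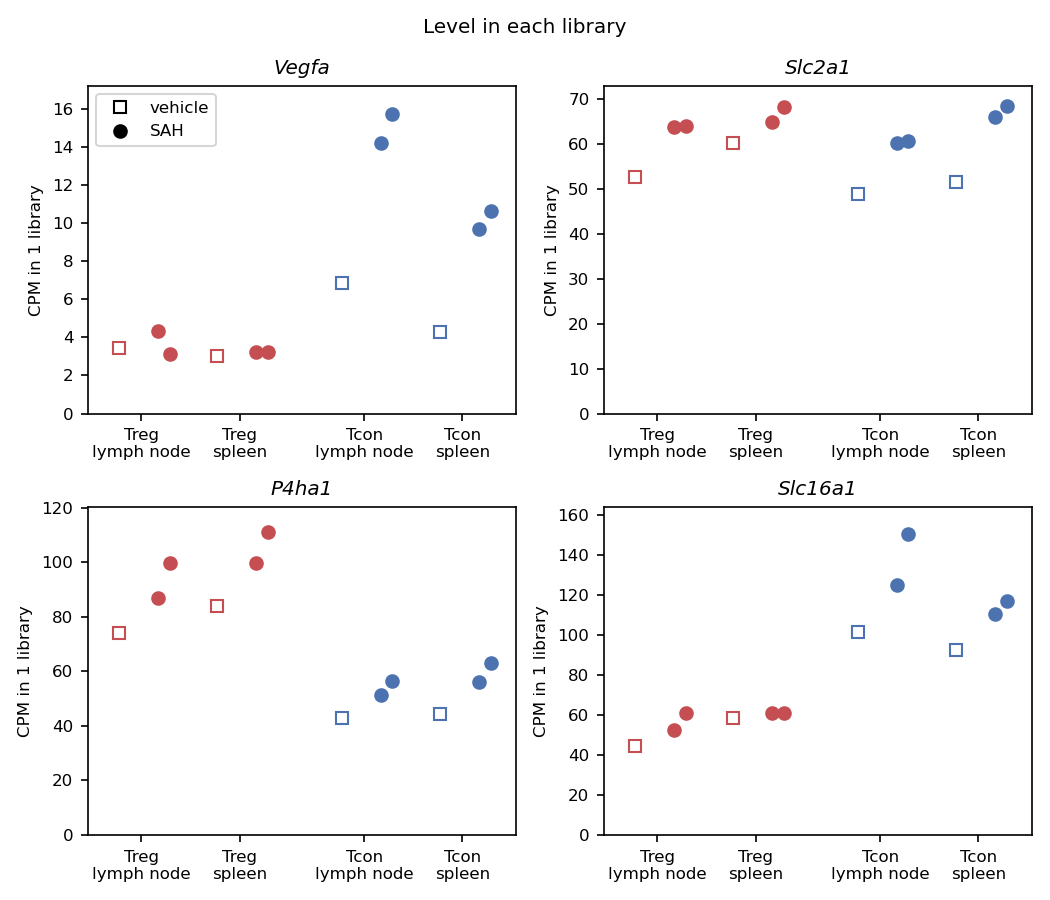
CPM in each library (y axis, from 0) of Vegfa, Slc2a1, P4ha1 and Slc16a1 by cell type and organ, with open squares for the 1 vehicle library and filled circles for the 2 SAH libraries of a group. Vegfa in Tcon stands at 14.2 and 15.7 CPM with SAH against 6.88 CPM with vehicle in lymph node, and between 3.04 and 4.35 CPM in all Treg libraries.

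Of the 2 glucose transporters, Slc2a1 rose in Tcon. Its values were 48.9 CPM under vehicle beside 60.3 and 60.8 CPM under SAH in lymph node, and 51.6 CPM beside 66.0 and 68.5 CPM in spleen, so that the 4 SAH libraries lay above both vehicle libraries. The rise was 1.26-fold, or 0.34 on the log2 scale (95% CI 0.22 to 0.46, adjusted p = 0.0227). Treg showed 52.8 CPM under vehicle beside 63.9 and 64.0 CPM under SAH in lymph node, and 60.2 CPM beside 65.0 and 68.3 CPM in spleen. All 4 SAH libraries were above both vehicles there as well, and the log2 change of 0.21 (95% CI 0.09 to 0.33) did not pass (adjusted p = 0.310). The difference between the cell types was 0.13 (95% CI -0.03 to 0.29, adjusted p = 1.00). The Tcon call of Slc2a1 was kept without library 02 and lost without any other, with adjusted p from 0.0651 without 05 to 0.270 without 04.

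Slc2a3 (GLUT3), the other glucose transporter, did not pass in either cell type. Tcon libraries read 59.1 CPM under vehicle beside 63.8 and 66.7 CPM under SAH in lymph node, and 64.7 CPM beside 67.5 and 75.4 CPM in spleen. Treg libraries read 150.3 CPM under vehicle beside 152 and 154 CPM under SAH in lymph node, and 170.0 CPM beside 176 and 180.5 CPM in spleen. Both SAH libraries were above vehicle in each organ and cell type by small amounts, with a log2 change of 0.14 (95% CI 0.00 to 0.28) in Tcon and 0.04 (95% CI -0.06 to 0.15) in Treg.

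Of the 13 glycolytic enzyme genes, 0 were called in either cell type by limma. In Tcon 12 had a positive change and 5 of these an unadjusted p below 0.05, and in Treg 9 were positive and 1 had an unadjusted p below 0.05. Changes ran from -0.04 (Pfkfb3) to 0.31 (Hk2) in Tcon and from -0.09 (Eno3) to 0.15 (Hk2) in Treg, on the log2(CPM + 1) scale. Hk2 is the inducible hexokinase. Its Tcon values were 2.16 CPM under vehicle beside 2.96 and 2.88 CPM under SAH in lymph node, and 2.29 CPM beside 3.31 and 2.90 CPM in spleen. The SAH libraries did not overlap the vehicle libraries, and the change (95% CI 0.06 to 0.57) did not pass (adjusted p = 0.250). Its Treg values were 10.9 CPM under vehicle beside 12.6 and 12.7 CPM under SAH in lymph node, and 10.6 CPM beside 12.3 and 10.7 CPM in spleen, where 1 spleen SAH library stood near the vehicle level.

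Hk1, the constitutive hexokinase, lay within 194 to 199 CPM in all 6 Treg libraries. Tcon gave 146 CPM under vehicle beside 155 and 143 CPM under SAH in lymph node, and 157 CPM beside 156 and 155 CPM in spleen, with SAH on both sides of vehicle in lymph node. The log2 change of Hk1 was 0.00 (95% CI -0.12 to 0.12) in Tcon and 0.03 (95% CI -0.07 to 0.13) in Treg. Gapdh catalyses the oxidation step of glycolysis. In Tcon it showed 251 CPM under vehicle beside 305 and 272 CPM under SAH in lymph node, and 288 CPM beside 302 and 313 CPM in spleen, a log2 change of 0.15 (95% CI 0.01 to 0.28, adjusted p = 0.314). In Treg it showed 302 CPM under vehicle beside 336 and 309 CPM under SAH in lymph node, and 301 CPM beside 315 and 307 CPM in spleen, a log2 change of 0.07 (95% CI -0.04 to 0.18). The 2 vehicle libraries of Tcon, which come from different organs, differed by more for Gapdh than vehicle and SAH did in spleen. In lymph node the SAH library at 305 CPM lay farther from vehicle than that, and the one at 272 CPM did not.

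The phosphofructokinase genes Pfkl and Pfkp, whose enzyme commits sugar to glycolysis, had log2 changes of 0.16 and 0.14 in Tcon, and of -0.06 and 0.14 in Treg, with 0 passing. Pgam1, phosphoglycerate mutase, had 0.15 in Tcon and 0.10 in Treg, and Pkm, pyruvate kinase, 0.08 and 0.08. Aldoa, Tpi1, Pgk1, Pfkm and Eno3 lay between 0.02 and 0.09 in Tcon and between -0.09 and 0.10 in Treg. Gapdh, Pgk1, Pgam1 and Ldha have pseudogene copies in the mouse genome, and how reads that match several places were assigned is not stated in the labels or headers, so their values are uncertain in that respect. Of the 35 genes, 14 overlap an annotated gene on the opposite strand, and whether strand was used in counting is not stated either.

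Among the 5 genes of pyruvate and lactate, 0 were called by limma in either cell type, with 1 at an unadjusted p below 0.05 in each, the transporter Slc16a1. Tcon values of Slc16a1 were 101 CPM under vehicle beside 125 and 150.5 CPM under SAH in lymph node, and 92.3 CPM beside 111 and 117 CPM in spleen. The SAH libraries did not overlap the vehicle libraries, with a log2 change of 0.36 (95% CI 0.19 to 0.54, adjusted p = 0.0582). The gene passed without library 02 (adjusted p = 0.0174), with robust empirical Bayes (adjusted p = 0.0311) and among genes with a mean of at least 10 CPM (adjusted p = 0.0456). Treg values were 44.7 CPM under vehicle beside 52.6 and 61.1 CPM under SAH in lymph node, and 58.4 CPM beside 60.8 and 60.8 CPM in spleen, a log2 change of 0.20 (95% CI 0.04 to 0.36, adjusted p = 0.582). Slc16a3 (MCT4), the lactate exporter of highly glycolytic cells, had log2 changes of 0.24 in Tcon and 0.18 in Treg, and neither passed.

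Ldha, whose enzyme makes lactate, did not pass in either cell type. Tcon libraries were at 300.1 CPM under vehicle beside 350.4 and 316 CPM under SAH in lymph node, and 337 CPM beside 353 and 329 CPM in spleen. Treg libraries were at 290.1 CPM under vehicle beside 319 and 295 CPM under SAH in lymph node, and 272 CPM beside 295 and 272 CPM in spleen. In each cell type 1 of the 2 spleen SAH libraries was below its vehicle, and the log2 change was 0.08 (95% CI -0.06 to 0.22) in Tcon and 0.07 (95% CI -0.05 to 0.18) in Treg. Pdk1, the kinase that holds pyruvate back from the mitochondrion, had the opposite sign. In Tcon it was at 497 CPM under vehicle beside 461 and 443 CPM under SAH in lymph node, and 428 CPM beside 403 and 409 CPM in spleen. All 4 SAH libraries were below the vehicle of their organ, with a log2 change of -0.11 (95% CI -0.22 to 0.01, adjusted p = 0.384) that did not pass. In Treg it was at 196 CPM under vehicle beside 187 and 187 CPM under SAH in lymph node, and 194 CPM beside 183 and 199 CPM in spleen, a log2 change of -0.05 (95% CI -0.16 to 0.06).

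Of the 6 genes of HIF factors and oxygen sensing, 0 were called by limma in either cell type, with 1 at an unadjusted p below 0.05 in Tcon and 0 in Treg. Their median log2 change was -0.03 in Tcon and -0.06 in Treg. Hif1a in Tcon was at 262 CPM under vehicle beside 254 and 267 CPM under SAH in lymph node, and 305 CPM beside 290.2 and 251 CPM in spleen, a log2 change of -0.09 (95% CI -0.25 to 0.06). Hif1a in Treg was at 445 CPM under vehicle beside 461 and 437 CPM under SAH in lymph node, and 579 CPM beside 637 and 467 CPM in spleen, where the SAH libraries of each organ lay on either side of vehicle. Egln1, the main oxygen-sensing hydroxylase, had all 4 SAH libraries below the vehicle of their organ in both cell types. Its log2 change was -0.20 (95% CI -0.32 to -0.07, adjusted p = 0.156) in Tcon and -0.09 (95% CI -0.21 to 0.03, adjusted p = 0.859) in Treg, and neither passed.

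Egln3 is a hydroxylase gene that is itself known to be induced by HIF. In Tcon its log2 change was 0.13 (95% CI -0.12 to 0.38), and 1 SAH library of each organ stood at the vehicle level: lymph node had 6.24 CPM under vehicle beside 7.0 and 6.25 CPM under SAH, and spleen 6.17 CPM beside 8.17 and 6.23 CPM. In Treg Egln3 was at 11.2 CPM under vehicle beside 14.3 and 12.3 CPM under SAH in lymph node, and 16.8 CPM beside 15.1 and 14.1 CPM in spleen, above vehicle in lymph node and below it in spleen. Vhl, Arnt and Egln2 had log2 changes of -0.18, 0.04 and 0.03 in Tcon and -0.09, -0.08 and 0.03 in Treg.

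Of the 9 hypoxia response genes, Vegfa and P4ha1 rose in Tcon, 0 fell and 7 did not pass. P4ha1 showed 42.9 CPM under vehicle beside 51.5 and 56.6 CPM under SAH in lymph node, and 44.5 CPM beside 56.0 and 63.2 CPM in spleen. The vehicle libraries lay below all 4 SAH libraries, a 1.29-fold rise with a log2 value of 0.37 (95% CI 0.21 to 0.52, adjusted p = 0.0469). The call was lost with upper quartile scaling (adjusted p = 0.0559) and without any library except 02, with adjusted p from 0.0573 without 05 to 0.357 without 04.

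In Treg P4ha1 had the largest change of the 35 genes. Its libraries gave 74.1 CPM under vehicle beside 87.0 and 99.8 CPM under SAH in lymph node, and 84.0 CPM beside 99.8 and 111 CPM in spleen. Again all 4 SAH libraries were above both vehicles. The log2 change of 0.32 (95% CI 0.19 to 0.46) missed the threshold (adjusted p = 0.0648). It passed with robust empirical Bayes (adjusted p = 0.0238) and without spleen SAH library 05 (adjusted p = 0.0120) or 06 (adjusted p = 0.00887). The change in Tcon minus that in Treg was 0.04 (95% CI -0.17 to 0.26, adjusted p = 1.00). In the authors' deposited table the false discovery rate of P4ha1 was 0.00127 in Treg and 0.000343 in Tcon.

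Ankrd37, an ankyrin repeat gene known as a HIF target, came next in this role in Tcon. It was at 5.81 CPM under vehicle beside 6.66 and 7.05 CPM under SAH in lymph node, and 3.97 CPM beside 5.94 and 6.23 CPM in spleen, with SAH above vehicle within each organ. The log2 change of 0.36 (95% CI 0.13 to 0.59) did not pass (adjusted p = 0.150), and in Treg it was 0.05. Kdm3a, a histone demethylase gene, had 0.14 in Tcon and 0.01 in Treg, and Mxi1, which encodes an antagonist of MYC, 0.05 and -0.03. The mitophagy receptor genes Bnip3 and Bnip3l, the lipid droplet gene Hilpda and the oxidoreductase gene Ero1l, all known to respond to hypoxia, had changes from -0.10 to -0.01 in Tcon and from -0.11 to 0.05 in Treg. In Tcon 5 of the 9 hypoxia response genes had a positive change and 4 a negative one.

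Counted library by library, 15 of the 35 genes in Tcon had all 4 SAH libraries above the vehicle of their organ and 3 had all 4 below (Pfkfb3, Pdk1 and Egln1), where 16.6% of all genes were above and 16.7% below. In Treg 11 of 35 were above, where 13.4% of all genes were, and 3 were below (Eno3, Arnt and Egln1), where 11.7% were. The share of the 35 that was above was 42.9% in Tcon and 31.4% in Treg. The 2 SAH libraries of an organ share 1 vehicle library, so the counts are a description. By the authors' deposited table, Slc2a1, Slc16a1, Vegfa and P4ha1 (4 of the 35) had a false discovery rate below 0.05 in Tcon, where 3.21% of all genes did, and P4ha1 (1 of the 35) in Treg, where 0.471% did.

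The SAH effect was compared between organs within each cell type by an interaction term. In Tcon 0 of the 35 genes and 0 of all genes (0%) were called by limma, with 0 of the 35 and 504 of all genes at an unadjusted p below 0.05. In Treg 0 of the 35 were called, where 1 of all genes was (0.00961%), and 3 of the 35 (Vhl, Egln3 and Hilpda) had an unadjusted p below 0.05, beside 251 of 10405 genes. For Vegfa in Tcon the spleen effect minus the lymph node effect was 0.05 on the log2 scale (95% CI -0.35 to 0.46).

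Other genes of these pathways were taken from lists, 82 of whose genes were measured in Tcon and 88 in Treg. In Tcon 2 of 82 rose and 0 fell, where 0.88% of all genes were called higher and 0.162% lower. In Treg 0 of 88 were called by limma, where 0.202% of all genes were. An unadjusted p below 0.05 was found for 15 of the 82 in Tcon, beside 1391 of 9886 genes. The same held for 12 of the 88 in Treg, beside 733 of 10405 genes. The 2 that rose in Tcon were Jmjd6, an oxygen-dependent oxygenase gene, and Siah2, the gene of a ubiquitin ligase that acts on prolyl hydroxylases. Jmjd6 libraries gave 59.2 CPM under vehicle beside 75.5 and 71.7 CPM under SAH in lymph node, and 63.0 CPM beside 79.8 and 85.7 CPM in spleen, a log2 change of 0.35 (95% CI 0.22 to 0.48, adjusted p = 0.0262). Siah2 libraries gave 59.7 CPM under vehicle beside 77.0 and 70.6 CPM under SAH in lymph node, and 72.3 CPM beside 86.6 and 90.3 CPM in spleen, a log2 change of 0.29 (95% CI 0.16 to 0.42, adjusted p = 0.0485). For both genes SAH lay above vehicle within each organ. Both calls were kept without library 02 and lost without any other, with adjusted p up to 0.285 for Jmjd6 and 0.312 for Siah2, both without 04. Siah2 also lost its call with a pseudocount of 4 (adjusted p = 0.0515) and with upper quartile scaling (adjusted p = 0.0661).

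By list in Tcon, 0 of 11 other glucose transporters and glycolytic isozymes, 0 of 13 other pyruvate and lactate genes, 0 of 13 genes of the pentose phosphate and glycogen branch and 0 of 13 genes upstream of glycolysis in T cells were called by limma, with 0, 2, 1 and 3 at an unadjusted p below 0.05. Siah2 was the 1 called of 10 other HIF factors and Jmjd6 the 1 called of 20 other hypoxia response genes. Of the family and receptors of VEGF, 2 genes were measured in Tcon and 0 were called, with 0 at an unadjusted p below 0.05. The median log2 change was 0.03 over the 82 genes in Tcon and 0.03 over the 88 in Treg.

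Levels of the 35 genes are compared between the cell types as a description, because each table carries its own normalization and no test was run across them. For 16 of the 35 the 6 Treg libraries all lay above the 6 Tcon libraries, for 4 all lay below and 15 overlapped. Over all genes 33.1% were higher in Treg in this way, 19.1% higher in Tcon and 52.1% either. The median ratio of Treg to Tcon was 1.11 for the 35 genes and 1.06 for all genes. The inducible hexokinase Hk2 had the largest ratio, 4.23, with 11.6 CPM in Treg on average over 6 libraries and 2.75 ± 0.437 (SD, n = 6) in Tcon. Slc16a3 followed with a ratio of 3.79, then Eno3 with 2.64 and Slc2a3 with 2.47. Hif1a averaged 504 ± 83.0 CPM for Treg and 272 ± 21.5 CPM for Tcon (SD, n = 6).

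The 4 genes higher in Tcon were Pdk1, Slc16a1, Bnip3l and Egln1. Pdk1 averaged 440.3 ± 35.2 CPM for Tcon and 191 ± 6.37 CPM for Treg (SD, n = 6), and Slc16a1 116 ± 20.4 and 56.4 ± 6.58 CPM. Vegfa averaged 10.2 ± 4.32 CPM for Tcon and 3.41 ± 0.479 CPM for Treg (SD, n = 6) and overlapped: the spleen vehicle library of Tcon, at 4.30 CPM, lay below the highest Treg library, at 4.35 CPM. All these averages pool the vehicle and SAH libraries of both organs, 4 of the 6 being SAH libraries. The Tcon average and SD of Vegfa therefore include its rise with SAH.

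**Figure D3:**
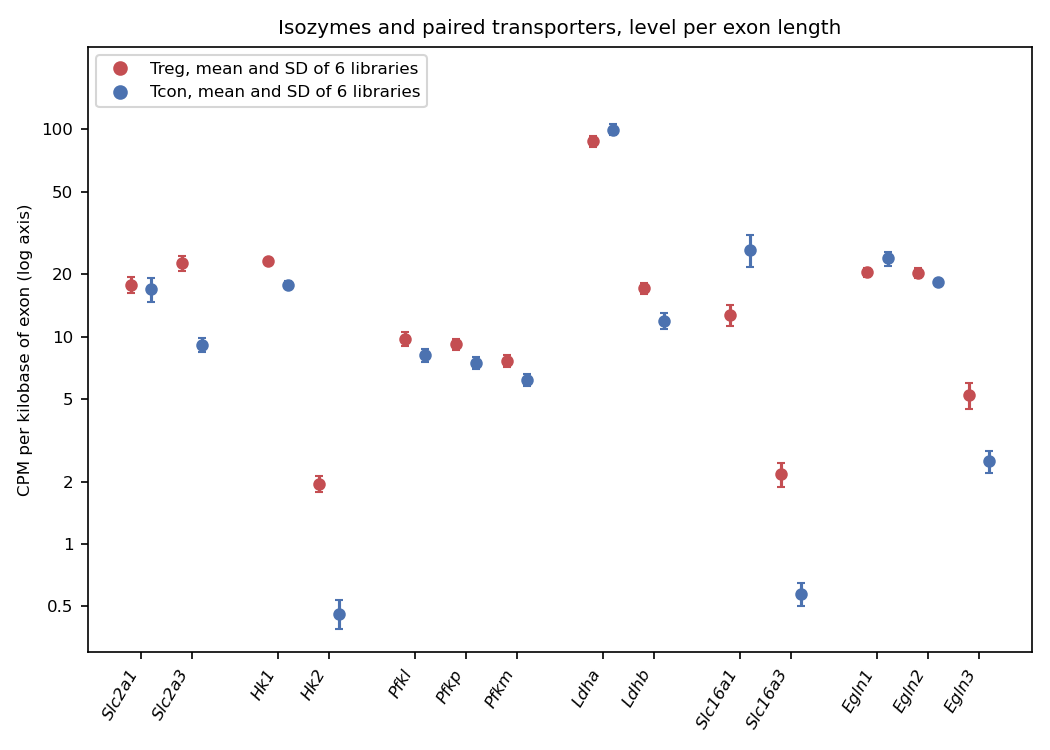
Level per exon length (CPM per kilobase of annotated exon, log axis) of genes that encode alternative forms of 1 activity, in Treg (red) and Tcon (blue), as mean and SD of 6 libraries. Hk2 stands at 1.95 in Treg and 0.461 in Tcon and Slc16a3 at 2.17 and 0.574, while the 3 phosphofructokinase genes keep the same order in both.

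Per exon length, the forms of an activity held different shares. Slc2a3 made up 56.0 ± 1.95% of the 2 glucose transporters in Treg and 35.2 ± 1.79% in Tcon (SD, n = 6 each, from CPM per kilobase of exon). Per kilobase, Slc2a3 led in Treg and Slc2a1 in Tcon. On plain CPM Slc2a3 was the higher of the 2 in both cell types, on average 66.2 against 59.4 CPM in Tcon. The order in Tcon thus rests on the exon lengths used, 7.245 kb for Slc2a3 and 3.506 kb for Slc2a1. Hk2 was 7.78 ± 0.581% of the hexokinase pair in Treg and 2.52 ± 0.378% in Tcon. Slc16a3 was 14.6 ± 1.80% of the lactate transporter pair in Treg and 2.16 ± 0.187% in Tcon. For these 3 pairs the 6 Treg and the 6 Tcon shares did not overlap.

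Ldha led its pair in both cell types, with 83.7 ± 1.26% of lactate dehydrogenase in Treg and 89.4 ± 0.483% in Tcon (SD, n = 6 each, per kilobase). The Ldha shares did not overlap between the cell types either, at 81.3 to 84.8% and 88.6 to 89.8%. Pfkl made up 36.6 ± 1.98% of phosphofructokinase in Treg and 37.3 ± 0.965% in Tcon, ahead of Pfkp with 34.6 ± 1.67% and 34.4 ± 0.882% and of Pfkm with 28.8 ± 1.45% and 28.4 ± 1.65%. The phosphofructokinase shares overlapped between the cell types, and those of Pfkl and Pfkp overlapped within Treg. On plain CPM Pfkp was above Pfkl, on average 123 against 65.1 CPM in Treg and 100.3 against 54.2 CPM in Tcon. Their order per kilobase thus rests on the exon lengths used, 13.401 kb for Pfkp and 6.675 kb for Pfkl. Egln3 was 11.4 ± 1.24% of the prolyl hydroxylases in Treg and 5.62 ± 0.672% in Tcon, with no overlap (9.54 to 12.9% and 4.99 to 6.80%). Egln1 and Egln2 did not differ beyond their spread in Treg (44.5 ± 2.03% and 44.1 ± 1.23%), and Egln1 led in Tcon (53.4 ± 2.38% and 41.0 ± 1.91%). Exon length was the union of all annotated exons, which understates genes whose long forms are not used.

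Between organs, 4 of the 35 genes differed in Treg and 1 in Tcon. In Treg 3 were higher and 1 lower in spleen, where 8.71% of all genes were called higher, 6.01% lower and 14.7% in either direction. In Tcon 0 were higher and 1 lower, where 3.28% of all genes were called higher, 1.46% lower and 4.73% in either direction. These counts are near the background. The count in Treg was 8 without library 05. The median log2 difference of spleen minus lymph node was 0.01 in Treg and 0.04 in Tcon for the 35 genes and 0.00 for all genes. The part of the myeloid, red cell and plasma cell RNA of spleen, given above, in the organ differences was not tested.

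Eno3, the enolase gene best known from muscle, was lower in spleen Treg. Treg libraries 01 to 06 had 55.3, 52.0 and 53.1 CPM in lymph node against 35.8, 31.3 and 34.9 CPM in spleen, with no overlap. The log2 difference was -0.64 (95% CI -0.77 to -0.51, adjusted p = 4.59e-06), and it passed in all 6 fits with 1 library left out. Tcon libraries had 16.5, 17.4 and 15.7 CPM in lymph node against 15.7, 16.7 and 17.4 CPM in spleen, which overlapped. The organ difference in Tcon minus that in Treg was 0.64 (95% CI 0.45 to 0.83, adjusted p = 0.00107). Without the block it was the 1 gene of the 35 called in that test, where 1.09% of all genes were called higher and 1.46% in either direction, and it passed in all 6 fits that left out 1 library number. With the library number as a block 4 of the 35 were called, beside 703 of all 9784 genes tested. The 4 were Eno3, Slc16a1 (adjusted p = 0.000157), Ldha (adjusted p = 0.0317) and Pdk1 (adjusted p = 0.0314).

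The genes higher in spleen Treg were Slc2a3, Mxi1 and Hif1a. Slc2a3 had 150.3, 152 and 154 CPM in lymph node against 170.0, 176 and 180.5 CPM in spleen, a log2 difference of 0.21 (adjusted p = 0.00620) that passed in all 6 left-out fits. Mxi1 had 28.7, 29.7 and 28.1 CPM in lymph node against 37.1, 33.8 and 36.7 CPM in spleen, a log2 difference of 0.30 (adjusted p = 0.00444), lost without vehicle library 01 (adjusted p = 0.0555) or 04 (adjusted p = 0.0568). Neither gene overlapped between organs. Hif1a differed by 0.31 on the log2 scale (adjusted p = 0.0225), with library 06 at 467 CPM close to the highest lymph node library (461 CPM) and the other 2 spleen libraries at 579 and 637 CPM. The Hif1a call was lost with robust empirical Bayes (adjusted p = 0.159) and without 01, 02, 03 or 04 (adjusted p from 0.0787 without 03 to 0.139 without 01), and without library 06 the difference was 0.45 (adjusted p = 5.58e-07). Library 06 also had the highest red cell sum, 139 CPM against 16.3 and 10.7 CPM in the other spleen Treg libraries, and its part was not tested. In Tcon the organ differences of Slc2a3, Mxi1 and Hif1a were 0.13, 0.11 and 0.11 and did not pass, and nor did the differences between the cell types (adjusted p = 0.713, 0.380 and 0.570).

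Vegfa was lower in spleen in Tcon. Its log2 difference was -0.54 (95% CI -0.72 to -0.36, adjusted p = 0.00356), with the spleen library below its lymph node counterparts under vehicle as under SAH, and it passed in all 6 left-out fits. In Treg the difference was -0.14 (95% CI -0.42 to 0.13, adjusted p = 0.501). The difference between the cell types, -0.39 (95% CI -0.70 to -0.08), did not pass (adjusted p = 0.258).

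**Figure D4:**
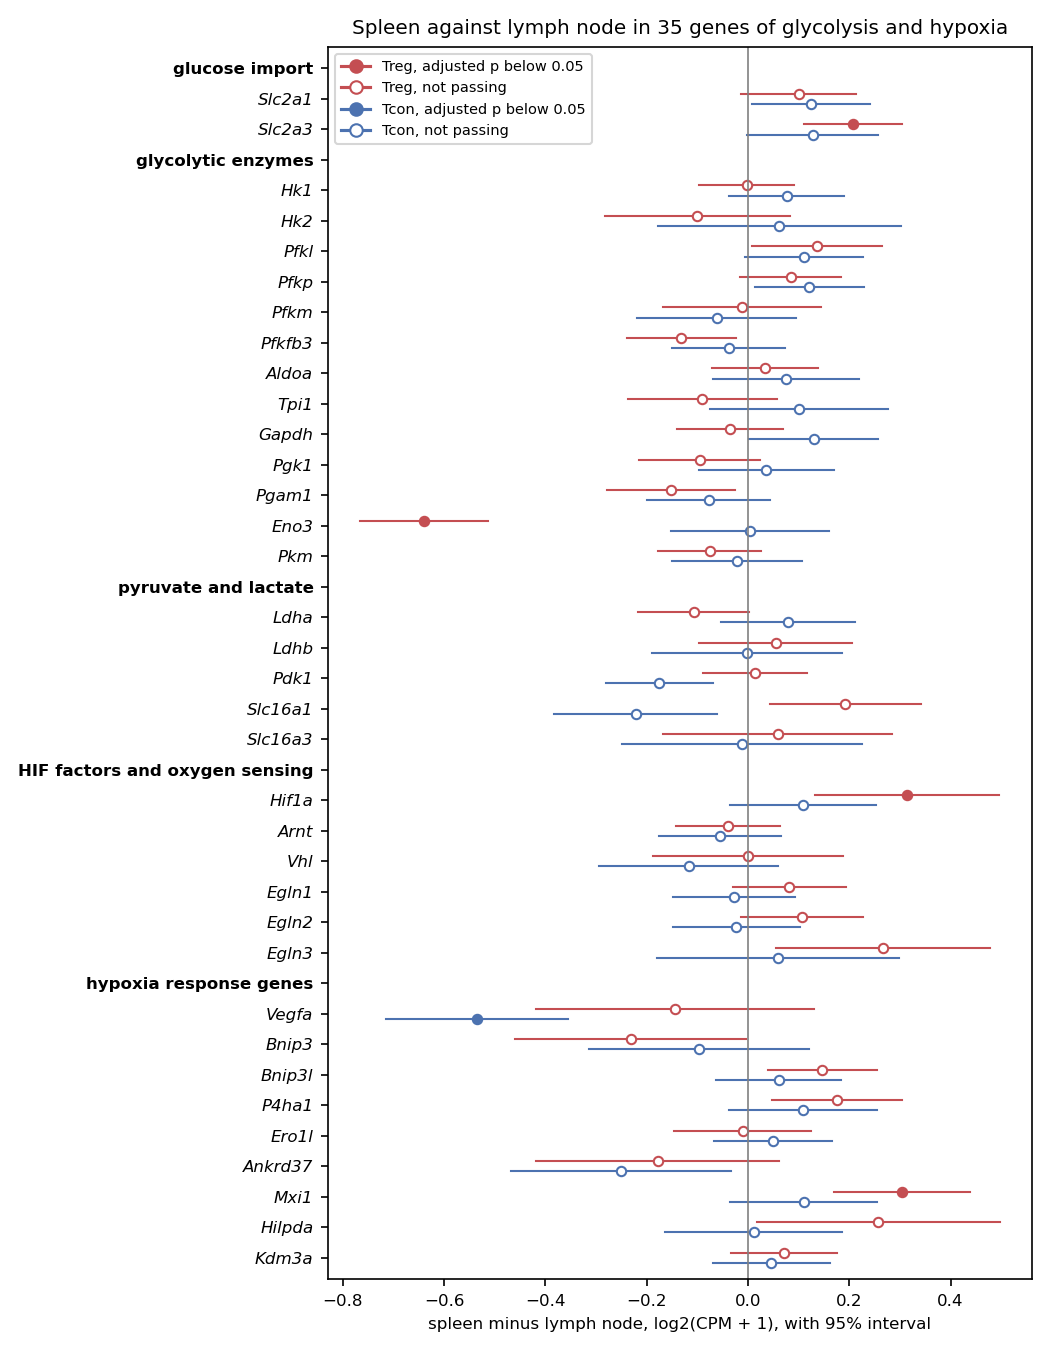
Spleen minus lymph node for the 35 genes on the log2(CPM + 1) scale (x axis), by role (y axis), in Treg (red) and Tcon (blue), with 95% intervals of the model and filled points where the adjusted p was below 0.05. Eno3 in Treg, at -0.64, and Vegfa in Tcon, at -0.54, lie farthest from 0.

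Of the other pathway genes, 15 of 88 differed between organs in Treg, 6 higher and 9 lower in spleen, and 3 of 82 in Tcon, 2 higher and 1 lower, both near the 14.7% and 4.73% of all genes. The 5 with the largest differences in Treg were Epas1, which encodes HIF-2 alpha (log2 difference 0.95), Ldhd, a D-lactate dehydrogenase gene (-0.77), the carbonic anhydrase gene Car12 (-0.69), Hif3a (-0.50) and the aldolase gene Aldoc (0.41). In Tcon the 3 were Bhlhe40, a hypoxia-responsive transcription factor gene (1.48), Ldhd (-0.52) and Siah2 (0.26). With 1 library left out, the Tcon call of Siah2 was kept only without 02 (adjusted p up to 0.118 without 03) and that of Ldhd was lost without 01 (adjusted p = 0.0884) or 04 (adjusted p = 0.0796). In Treg the call of Hif3a was lost without 01, 03 or 04 (adjusted p up to 0.0796, without 03) and that of Aldoc without any library except 05 (adjusted p up to 0.118, without 02). Bhlhe40 in Tcon had 29.6, 44.5 and 36.6 CPM in lymph node against 112, 105 and 93.0 CPM in spleen, with no overlap. Markers of CD8 and natural killer cells (5 of 8 listed) stood at 29.7 to 34.4 CPM in lymph node and 65.5 to 90.0 CPM in spleen Tcon, and their part was not tested.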

How the data were processed

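Each cell type came as 1 table, in which the authors deposited a normalized signal per gene and library, labelled CPM per the file headers. Column totals ran from 971928 to 1.02143e+06, so each library carries a scaling of its own. The other deposited columns are the authors' results for SAH: a log2 fold change and mean log2 CPM, a p-value with a false discovery rate, and as scores a likelihood ratio and an up or down mark, per the file headers. The submitters' processing notes name TopHat, Bowtie, edgeR and mm10, without versions. Annotation and read counting were not given in the sources used here.

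Values were analysed as log2(CPM + 1) with limma 3.58.1 in R 4.3.3, using empirical Bayes with a mean trend and two-sided tests. A minimum of 1 CPM in 2 libraries removed 0 genes. Organ and treatment were terms of 1 model per cell type, with 3 residual degrees of freedom. The organ interaction had 2, and differences between cell types came from 1 model of 12 libraries with 6. Benjamini-Hochberg adjustment covered all genes of a table. The added 1 CPM makes fold changes of low genes smaller.

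Same-numbered Treg and Tcon libraries deviated together from their group means (correlation over 9784 genes 0.438 for 02 and 03 and 0.556 for 05 and 06). The number was therefore used as a block in an alternative fit, on the evidence of the data and not of the labels. The main models between cell types carry no block, because no label says that a shared number is a shared mouse. The fit with the number as a block has 3 residual degrees of freedom.

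Members, gene lists and tests were chosen with earlier results of these data known. Every library was given for each member called in any comparison, for Vegfa, Slc2a1, Slc2a3, Hk1, Hk2, Gapdh, Ldha, Pdk1, Hif1a and Egln3, and for the 3 members with the largest change in each SAH comparison. The exceptions are values given as a range (Hk1 in Treg) and those of Mxi1 in Tcon, which ran from 19.9 to 22.7 CPM. Of the other pathway genes, those called with SAH were named, up to 10, and the 5 largest between organs. Positions and exon lengths came from GENCODE vM21 (35 of 35 matched). Alternatives were the pseudocount, the filter, the scaling, robust empirical Bayes, 1 symbol for identical values, each library left out and the block. The organ difference between cell types and the counts of non-overlapping libraries were added after seeing the data.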

Additional observations from a re-analysis of the deposited data

Results flagged for a closer look

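The SAH effect on Vegfa differed between the cell types in the fit with the library number as a block: the log2 change in Tcon minus that in Treg was 0.96 (limma adjusted p = 0.00441, and 0.0615 without the block). Vegfa was above the vehicle of its organ in 4 of 4 SAH libraries of Tcon and in 3 of 4 of Treg.

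The organ difference (spleen minus lymph node) of 4 of the 35 genes differed between the cell types in the same kind of fit. That fit called 703 of all 9784 genes tested, against 143 without the block. Eno3 differed by 0.64 on the log2 scale (limma adjusted p = 4.63e-05). Slc16a1 differed by -0.41 (adjusted p = 0.000157), with organ differences of 0.19 in Treg and -0.22 in Tcon. Ldha differed by 0.19 (adjusted p = 0.0317), with -0.11 in Treg and 0.08 in Tcon. Pdk1 differed by -0.19 (adjusted p = 0.0314), with 0.01 in Treg and -0.17 in Tcon. Without the block Slc16a1, Ldha and Pdk1 did not pass (adjusted p = 0.0976, 0.368 and 0.209).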

How the results depend on the processing

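With a library left out, the count of called members with SAH was 1 to 4 in Tcon (Vegfa in each of these fits) and 0 to 1 in Treg (P4ha1), which was also 1 with robust empirical Bayes. Between organs it was 2 to 8 in Treg and 1 to 3 in Tcon. For the SAH effect between cell types 1 member, Vegfa, was called with pseudocount 4, with robust empirical Bayes and with the replicate block. For the organ difference between cell types the replicate block called 4 members.

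Over all genes the count with SAH was 7 to 95 in Treg and 11 to 226 in Tcon with a library left out, and in Tcon 67 with upper quartile scaling and 170 with robust empirical Bayes. Between organs it was 768 to 1830 in Treg and 215 to 628 in Tcon with a library left out, and 259 in Tcon among genes with a mean of at least 10 CPM. For the SAH effect between cell types it was 3 with pseudocount 4, 4 with robust empirical Bayes and 76 with the block. For the organ difference between cell types it was 62 to 133 with a library number left out, 56 at a mean of at least 10 CPM and 703 with the block. For the SAH effect between organs it was 0 to 94 in Treg and 0 to 15 in Tcon with a library left out, 2 in Treg with robust empirical Bayes or pseudocount 0.1, and 1 in Tcon with robust empirical Bayes or pseudocount 4.

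The planned count models on reads recovered from the CPM steps were not run, since the recovery did not meet the criterion set for it, which uses only the lowest values of each library and found too few of them. With 1 vehicle library per organ, leaving out library 01 or 04 rests the SAH effect on 1 organ. The cause of the other shifts was not tested.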

Other observations

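Outside the 35 genes, 3 of 82 genes of the related lists had organ differences that differed between the cell types. In that test, the model without a block, 1.46% of all genes were called. Bhlhe40, a transcription factor gene that responds to hypoxia and to T cell activation, was 2.78-fold higher in spleen than lymph node in Tcon and stood at 1.11-fold in Treg, a difference of 1.33 on the log2 scale (limma adjusted p = 0.000536). Epas1 in Treg had 2.22, 1.72 and 1.95 CPM in lymph node against 5.32, 3.69 and 5.24 CPM in spleen, and in Tcon 24.1, 25.0 and 22.9 CPM in lymph node against 19.7, 23.2 and 27.4 CPM in spleen, a difference of -0.99 (adjusted p = 0.00433). Nrp1, a receptor for VEGF and semaphorins, was lower in spleen Treg, with 508, 479 and 531 CPM in lymph node against 369, 381 and 400.4 CPM in spleen. In Tcon Nrp1 had 11.3, 15.6 and 11.8 CPM in lymph node against 18.8, 28.2 and 14.8 CPM in spleen, and the difference of 1.00 between the cell types stood at adjusted p = 0.0371. With 1 library number left out at a time, Bhlhe40 was called in 6 of 6 fits, Epas1 in 4 of 6 and Nrp1 in 1 of 6. With robust empirical Bayes Bhlhe40 (adjusted p = 0.0542) and Nrp1 (adjusted p = 0.269) did not pass.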
